A study of Mus musculus with 9 samples.

Results

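The glutathione and antioxidant enzymes are the genes by which a cell conjugates electrophiles and removes superoxide, peroxides and oxidised thiols. They were taken here as every probe set whose platform annotation names exactly 1 gene of a fixed set. That set holds the cytosolic and mitochondrial glutathione transferases, the Gpx, Prdx, Sod and Txnrd families, Txn1, Txn2, Cat, Nqo1, Hmox1, Hmox2, the glutathione synthesis and recycling genes Gclc, Gclm, Gss and Gsr, and the regulators Nfe2l2 and Keap1. The rule found 88 of 36701 non-control probe sets, for 50 of 15964 genes. It left out 3 probe sets because they carry both the symbols Prdx1 and Gm21399.

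Their transcripts were measured in 3 mouse stromal cell lines, each hybridised once to the Affymetrix arrays MG-U74A, MG-U74B and MG-U74C. AGM-s3-A9 came from the aorta-gonad-mesonephros (AGM) region of the embryo and supports hematopoiesis. OP9 came from the calvaria of newborn mice and also supports hematopoiesis. AGM-s3-A7 came from the AGM region and does not. The sources used here do not give the mouse strain, genotype, passage or culture conditions of the lines, and no treatment is labelled. Of the member probe sets, MG-U74A carries 56, MG-U74B 15 and MG-U74C 17.

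Values are intensities after quantile normalization of the 3 lines within an array type. A probe set counts as detected in a line above 49.0 on MG-U74A, 52.8 on MG-U74B or 61.6 on MG-U74C, the higher of the median of that array type and the 95th percentile of its 34 negative control probe sets. Of the 88 member probe sets 48 were detected in at least 1 line, and these represent 35 of the 50 genes. Levels of different probe sets are not on 1 scale, so each probe set is compared only with itself across the lines. Each line has a single array of each type, so there is no replicate, no p-value and no SD between samples, and this number of arrays limits the precision. As a yardstick, 2 detected probe sets of 1 gene on the same array type differed in their log2 ratios with a robust SD per probe set of 0.30 for AGM-s3-A9 over AGM-s3-A7 (1160 pairs), 0.31 for OP9 over AGM-s3-A7, and AGM-s3-A9 over OP9 gave 0.32. It is 1 SD, so genes that do not differ can exceed it, and it uses only probe sets detected in both lines of a pair. Separate cultures were not compared, so differences between cultures of a line are not covered by it. Both probe sets were read on the same arrays, so differences between labellings or hybridisations are not covered either. A gene is called higher or lower where its brightest probe set differs by 2-fold or more. Where 1 line lies at or below the detection level the fold is a lower bound.

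As a check of the labels, 5 of 6 stromal markers were detected in AGM-s3-A9, 4 in OP9 and 5 in AGM-s3-A7. Vim was below the detection level in all lines, and Thy1, a fibroblast surface antigen, read 416 in AGM-s3-A9, 4.61 in OP9 and 206 in AGM-s3-A7. None of 6 hematopoietic and 4 endothelial markers was detected in any line, and their sums were 78.9, 115 and 111 for the hematopoietic and 45.02, 20.2 and 37.6 for the endothelial list in AGM-s3-A9, OP9 and AGM-s3-A7. Of 4 epithelial markers, Cdh1 and Epcam were above the level in all lines, with sums over the list between 205 and 250.5.

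Glutathione is a tripeptide made by glutamate-cysteine ligase and glutathione synthetase. Glutathione transferases couple it to reactive compounds, and glutathione peroxidases use it to reduce peroxides. Peroxiredoxins draw mainly on the thioredoxin system for the same purpose, and superoxide dismutases supply hydrogen peroxide from superoxide. Many of these genes are induced by the transcription factor NRF2, encoded by Nfe2l2, which binds antioxidant response elements and is held at low level by the KEAP1 adaptor.

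Most members were less than 2-fold apart in each pair of lines. The shares called were above those of all genes, except for lower genes in AGM-s3-A9 against AGM-s3-A7. In AGM-s3-A9 against AGM-s3-A7, 3 of the 35 measured member genes were at least 2-fold higher, or 8.57%, where 3.08% of all genes were. None was at least 2-fold lower, where 2.28% of all genes were. In OP9 against AGM-s3-A7, 4 of 35 were higher and 5 lower, or 11.4% and 14.3%, where 5.14% and 5.98% of all genes were. In AGM-s3-A9 against OP9, 6 of 33 measured genes were higher and 3 lower, or 18.2% and 9.09%, where 6.58% and 5.06% of all genes were. These counts read Prdx2 on its brightest probe set, and another detected probe set of that gene gives the opposite direction. On that other one, an alternative chosen after seeing the data, OP9 against AGM-s3-A7 had 5 higher and 4 lower, and AGM-s3-A9 against OP9 had 6 higher and 4 lower. The median log2 ratio of the member genes was 0.10, 0.03 and 0.03 in these comparisons, against 0.01, 0.04 and -0.02 for all genes. A gene detected in only 1 line of a pair enters these counts through that line, and both comparisons with AGM-s3-A7 share its arrays. Within 1.5-fold were 29 of 35 genes for AGM-s3-A9 over AGM-s3-A7, 24 of 35 for OP9 over AGM-s3-A7, and 19 of 33 in AGM-s3-A9 over OP9.

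**Figure D1:**
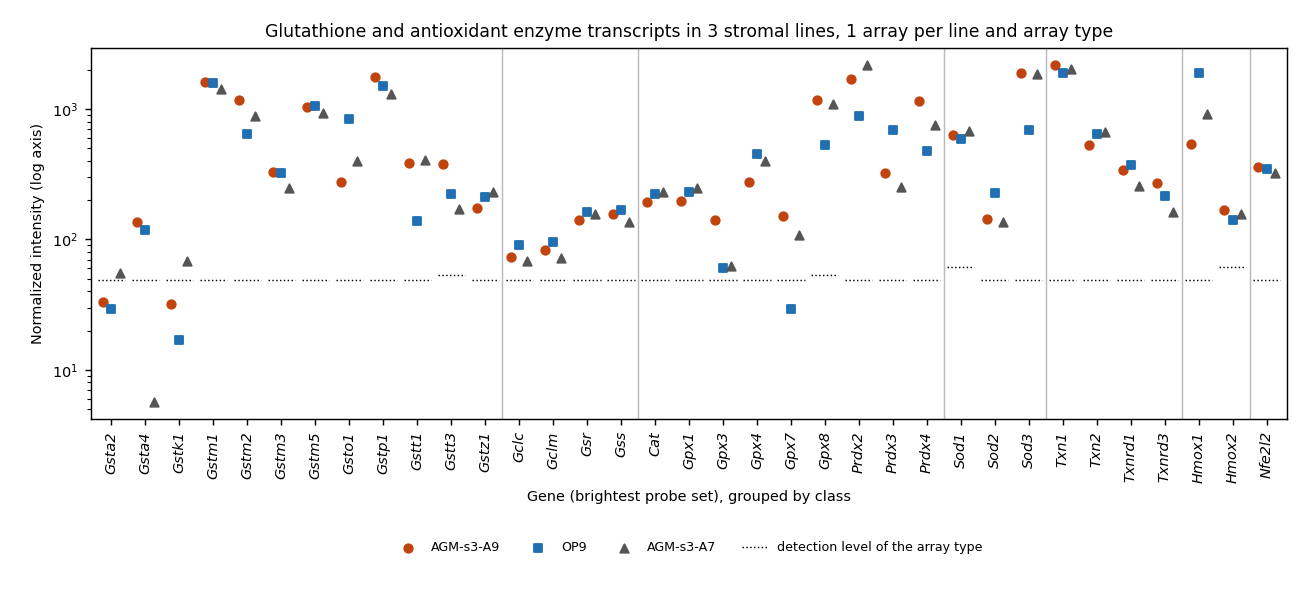
Normalized intensity on a log axis of the brightest probe set of each of the 35 member genes detected in at least 1 line, grouped by class, with 1 point per line and the detection level of the array type dotted. Most genes have their 3 points close together, while Gsto1, Hmox1 and Prdx3 are highest in OP9 and Gstt1, Gpx7, Gpx8 and Sod3 lowest in OP9; heights of different genes are not comparable.

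By probe set, AGM-s3-A9 set against AGM-s3-A7 had 3 of 47 measured member probe sets higher and 1 lower, where 2.88% and 2.18% of all probe sets were. On the deposited intensities, without scaling, 12 were higher and 1 lower, and the median of all genes stood at 0.24. The 2% trimmed means of the lines on MG-U74A, which carries 56 of the 88 member probe sets, were up to 61.1% apart before scaling. The median of all genes pools the 3 array types, so it is not a like measure for the members. The share of all probe sets called without scaling was not counted, so the 12 have no background beside them. In OP9 against AGM-s3-A7, 6 of 48 were higher and 6 lower, where 4.77% and 5.52% of all probe sets were. In AGM-s3-A9 against OP9, 6 of 46 were higher and 4 lower, where 5.96% and 4.63% of all probe sets were. Without scaling these were 8 and 2, with the median of all genes at 0.19 and again no share of all probe sets counted.

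**Figure D2:**
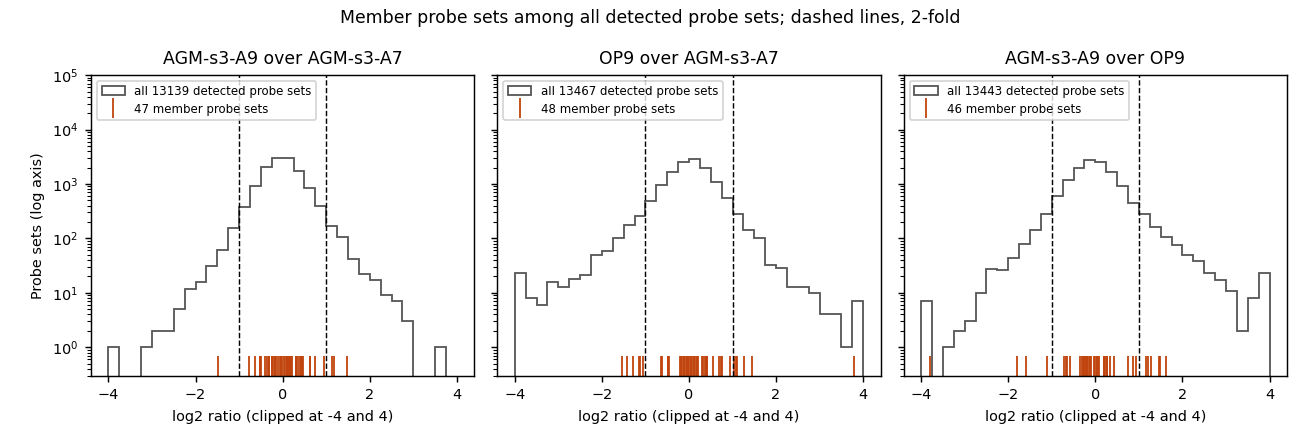
Distribution of log2 ratios over all detected probe sets in each pair of lines (outline, log axis of counts), with the member probe sets as ticks and 2-fold as dashed lines. The member ticks gather around 0 and spread past 2-fold on both sides in the pairs with OP9, where a probe set of Prdx2 stands near the edge.

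Among the regulators, Nfe2l2 read 360 in AGM-s3-A9, 345 in OP9 and 321 in AGM-s3-A7. The lines were thus 1.12-fold or less apart after quantile normalization, within the yardstick. Without scaling the log2 ratio of Nfe2l2 was 0.92 in AGM-s3-A9 over AGM-s3-A7 and 0.71 in AGM-s3-A9 over OP9. The median of the member genes was then 0.73 and 0.60. The yardstick comes from normalized ratios, so it does not apply to these unscaled values. Keap1, on its 1 probe set, read 10.3, 20.9 and 12.4 in the same order, below the detection level in every line. These are transcript levels, and the amount of NRF2 protein was not measured. In these bulk RNA samples, fewer cells expressing a gene and less RNA per cell cannot be told apart.

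To show where its element lies near these genes, the promoter windows of RefSeq (GRCm38.p6, 250 bases before to 50 bases after the annotated start) were searched for the core antioxidant response element TGACNNNGC on both strands. The table held windows for 44 of the 50 members, and 7 of these, 15.9%, contained a match in at least 1 window, against 14.0% of all 27025 genes in the table. Gsta3 and Gstm7, which were not detected in any line, had a match. Detected members with a match were Nfe2l2, Gclm, Gstm5, Sod1 and Txnrd1, and none of these was at least 2-fold apart in any pair on its brightest probe set. Among the members with a window, 0 of the 9 that were at least 2-fold apart in a pair had a match, and 5 of the 21 other detected members had one. Gsta4, Hmox1 and Sod3, also at least 2-fold apart in a pair, were not searched. A match is a run of letters and not a shown binding site, and its absence here concerns these 300 bases alone. The matching windows of the 5 detected members are printed 5′ to 3′ on the strand of the gene, with the match in capitals.
Nfe2l2, chr2:75704614-75704913, minus strand: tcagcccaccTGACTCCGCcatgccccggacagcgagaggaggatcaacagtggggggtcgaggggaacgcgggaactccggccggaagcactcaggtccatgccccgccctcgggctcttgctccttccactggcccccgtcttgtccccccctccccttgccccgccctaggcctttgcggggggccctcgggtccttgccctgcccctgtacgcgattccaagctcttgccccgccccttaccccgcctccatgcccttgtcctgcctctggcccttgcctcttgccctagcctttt
Gclm, chr3:122245307-122245606, plus strand: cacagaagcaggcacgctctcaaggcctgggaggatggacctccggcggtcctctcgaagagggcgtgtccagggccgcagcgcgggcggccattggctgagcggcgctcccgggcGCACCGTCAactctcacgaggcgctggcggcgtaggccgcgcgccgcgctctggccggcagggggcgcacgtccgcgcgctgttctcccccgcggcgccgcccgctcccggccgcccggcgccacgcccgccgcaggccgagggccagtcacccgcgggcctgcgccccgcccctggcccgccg
Gstm5, chr3:107895604-107895903, plus strand: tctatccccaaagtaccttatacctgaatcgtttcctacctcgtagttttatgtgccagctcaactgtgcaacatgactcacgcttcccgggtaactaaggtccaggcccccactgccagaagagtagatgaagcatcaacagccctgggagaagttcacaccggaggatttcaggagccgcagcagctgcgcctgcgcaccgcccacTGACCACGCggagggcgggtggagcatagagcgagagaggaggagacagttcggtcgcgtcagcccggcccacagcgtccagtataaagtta
Sod1, chr16:90220512-90220811, plus strand: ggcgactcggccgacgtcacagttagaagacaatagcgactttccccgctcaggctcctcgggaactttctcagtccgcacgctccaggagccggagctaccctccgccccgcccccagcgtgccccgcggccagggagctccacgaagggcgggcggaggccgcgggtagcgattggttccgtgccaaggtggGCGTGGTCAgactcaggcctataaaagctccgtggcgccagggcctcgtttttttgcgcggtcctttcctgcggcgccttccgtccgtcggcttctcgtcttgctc
Txnrd1, chr10:82858956-82859255, plus strand: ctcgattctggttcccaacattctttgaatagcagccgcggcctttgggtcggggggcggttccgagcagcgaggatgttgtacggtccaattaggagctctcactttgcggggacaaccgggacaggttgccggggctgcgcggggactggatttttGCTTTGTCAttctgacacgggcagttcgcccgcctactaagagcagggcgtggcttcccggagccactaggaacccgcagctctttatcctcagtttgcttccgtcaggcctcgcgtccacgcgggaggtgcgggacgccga
The match reads TGACTCCGC in Nfe2l2 and TGACCACGC in Gstm5. It lies on the opposite strand in the others, and reads GCACCGTCA in Gclm, GCGTGGTCA in Sod1 and GCTTTGTCA in Txnrd1 as printed. Txnrd1 has 2 further windows in the table, at other annotated starts, and neither holds a match.

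The enzymes that make and regenerate glutathione were all detected and less than 2-fold apart between the lines. Gclc, the catalytic subunit of glutamate-cysteine ligase, read 73.2 in AGM-s3-A9, 90.5 in OP9 and 68.6 in AGM-s3-A7. Its modifier subunit Gclm, whose window is printed above, read 82.9, 95.3 and 71.6 in the same order. In OP9 both subunits thus exceeded their AGM-s3-A7 values, by 1.32-fold and 1.33-fold, short of the call. Glutathione synthetase, Gss, read 156, 167 and 137, and glutathione reductase, Gsr, which returns the oxidised dimer to glutathione, read 140, 162 and 158. Of their 8 probe sets, 3 on MG-U74B, for Gclc and Gclm, lay below the detection level in all lines.

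Glutathione transferases make up 21 of the 50 genes. Of these 12 were detected, and Gsta1, Gsta3, Gstm4, Gstm6, Gstm7, Gsto2, Gstp3, Gstt2 and Gstt4 were not detected in any line. The pi class gene Gstp1 read 1749 in AGM-s3-A9, 1509 in OP9 and 1310 in AGM-s3-A7. Gstm1, of the mu class, read 1614, 1582 and 1433 in the same order, and Gstm5 read 1029, 1048 and 926. These 3 genes were within 1.33-fold in every pair, read on their brightest probe sets. Those of Gstm1 and Gstm5 carry a suffix of possible cross-hybridisation. The detected probe set of Gstm5 without a suffix, 100629_at, read 183 in AGM-s3-A9, 218 in OP9 and 135 in AGM-s3-A7. On it OP9 was 1.62-fold above AGM-s3-A7.

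The lines parted at 4 transferases. Gsta4, an alpha class enzyme known for conjugating the lipid peroxidation product 4-hydroxynonenal, read 135 in AGM-s3-A9, 117 in OP9 and 5.68 in AGM-s3-A7. Both supportive lines were above the detection level and AGM-s3-A7 was far below it. The bound is at least 2.76-fold for AGM-s3-A9 and at least 2.39-fold for OP9, on 1 probe set. With the detection level at the 75th percentile of the array type, Gsta4 was not detected and neither call could be made. Read on brightest probe sets, it was the only member gene called in the same direction in AGM-s3-A9 and in OP9.

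Gstt1, of the theta class, read 387 in AGM-s3-A9, 138 in OP9 and 403 in AGM-s3-A7. OP9 was the low line, 2.92-fold below AGM-s3-A7, and AGM-s3-A9 was 2.80-fold above OP9. Gstt3, encoded on the same chromosome 10, did not share that order, with 376 in AGM-s3-A9, 222 in OP9 and 172 in AGM-s3-A7. AGM-s3-A9 exceeded AGM-s3-A7 by 2.18-fold, and OP9 exceeded it by 1.29-fold. On the deposited intensities the log2 ratio of Gstt3 in AGM-s3-A9 over AGM-s3-A7 was 0.73, short of the call. The median log2 ratio over the genes of chromosome 10 was 0.03 for AGM-s3-A9 and -0.10 for OP9, each over AGM-s3-A7.

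Gsto1, of the omega class, whose product also reduces dehydroascorbate, was highest in OP9. It read 278 in AGM-s3-A9, 832 in OP9 and 395 in AGM-s3-A7. OP9 was 2.10-fold above AGM-s3-A7, while AGM-s3-A9 was 1.42-fold below AGM-s3-A7 and 3.00-fold below OP9. Without scaling the log2 ratio of Gsto1 in AGM-s3-A9 over OP9 was -0.92, short of the call. Gstm2 read 1166, 638 and 885 in AGM-s3-A9, OP9 and AGM-s3-A7, and its ratio of 1.83-fold between AGM-s3-A9 and OP9 fell short of the call. Gstz1, the maleylacetoacetate isomerase of tyrosine breakdown, read 174, 212 and 230.5.

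Gstk1, a mitochondrial and peroxisomal transferase, was above the detection level in AGM-s3-A7 alone, at 68.8, against 32.05 in AGM-s3-A9 and 16.9 in OP9. The bound is at least 1.40-fold lower in either supportive line. It lies on chromosome 6, whose genes had a median log2 ratio of 0.37 for OP9 over AGM-s3-A7. Gsta2 read 33.3 in AGM-s3-A9, 29.1 in OP9 and 55.5 in AGM-s3-A7, where it just passed the level.

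**Figure D3:**
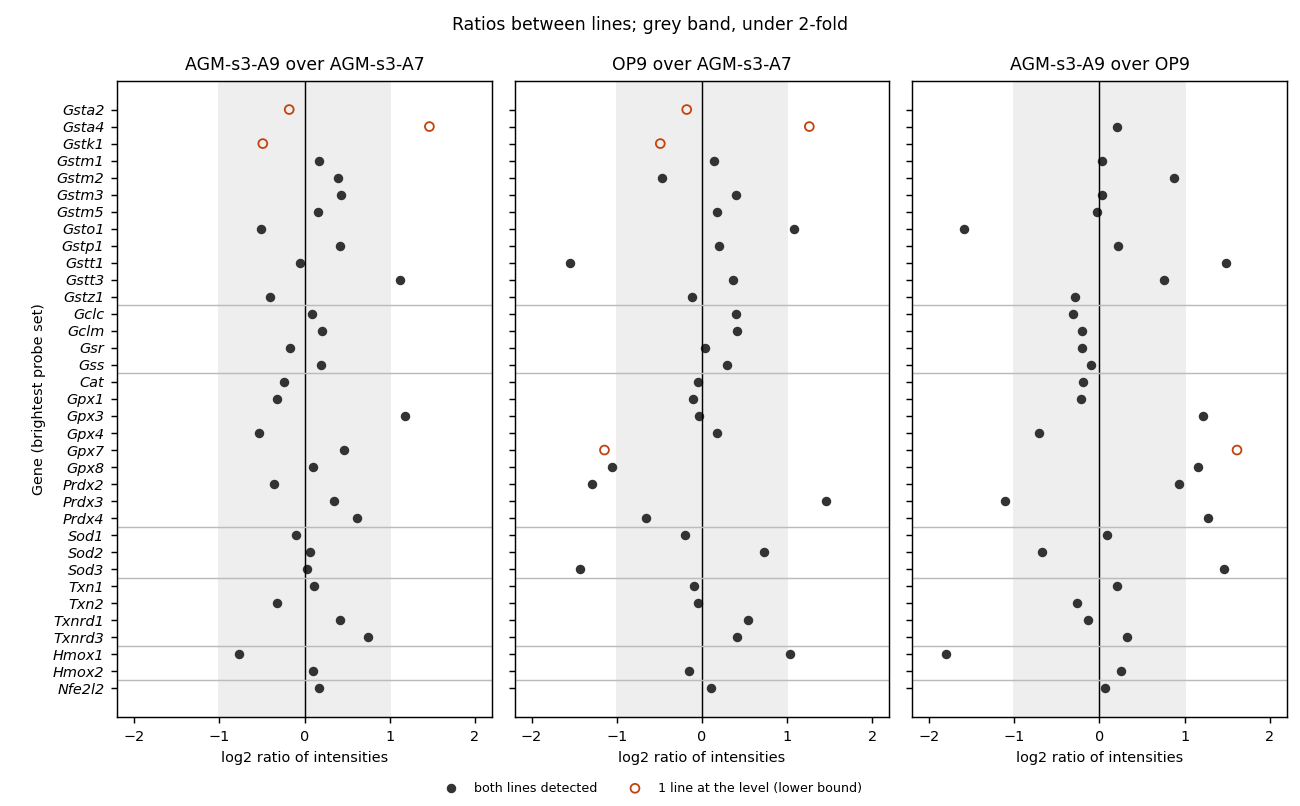
log2 ratios between lines for the 35 detected member genes on their brightest probe sets, from the transferases at the top to Nfe2l2 at the bottom; open circles are lower bounds and the grey band is under 2-fold. Between the AGM lines only Gsta4, Gstt3 and Gpx3 lie outside the band, while both panels with OP9 hold points on either side.

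Of the genes of peroxide removal, 4 of 9 measured were called higher and 1 lower in AGM-s3-A9 against OP9, where 6.58% and 5.06% of all genes were. Gpx8, a glutathione peroxidase family member of the endoplasmic reticulum, read 1174 in AGM-s3-A9, 528 in OP9 and 1096 in AGM-s3-A7. The AGM lines were nearly equal and OP9 was 2.08-fold below AGM-s3-A7. Its relative Gpx7, also of the endoplasmic reticulum, read 150.0 in AGM-s3-A9, 29.0 in OP9 and 108 in AGM-s3-A7. OP9 was below the detection level, at least 3.06-fold below AGM-s3-A9 and at least 2.21-fold below AGM-s3-A7.

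Prdx4, the peroxiredoxin of the endoplasmic reticulum, read 1152 in AGM-s3-A9, 477 in OP9 and 750 in AGM-s3-A7. AGM-s3-A9 was 2.42-fold above OP9 and 1.54-fold above AGM-s3-A7, and OP9 was 1.57-fold below AGM-s3-A7. Gpx3, the secreted plasma peroxidase, read 141 in AGM-s3-A9, 60.6 in OP9 and 62.0 in AGM-s3-A7. AGM-s3-A9 stood 2.27-fold above AGM-s3-A7, and OP9 differed from AGM-s3-A7 by 1.02-fold. The values in OP9 and AGM-s3-A7 lie close to the detection level of 49.0.

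Of the 3 superoxide dismutases, 1 was 2-fold apart. Sod3, the secreted extracellular enzyme, read 1895 in AGM-s3-A9, 690 in OP9 and 1856 in AGM-s3-A7. OP9 was 2.69-fold below AGM-s3-A7, and AGM-s3-A9 was within 1.02-fold of it. Sod1, the cytosolic copper and zinc enzyme, read 627, 588 and 674 in AGM-s3-A9, OP9 and AGM-s3-A7 on MG-U74C. A second detected probe set on MG-U74A read 468, 534 and 533, so both placed the 3 lines within 1.15-fold of each other. Sod2, the mitochondrial manganese enzyme, read 142 in AGM-s3-A9, 226 in OP9 and 137 in AGM-s3-A7, which puts OP9 1.66-fold above AGM-s3-A7.

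Grouped by where their products are known to act, 7 members belong to the secretory pathway or are secreted, Gpx3, Gpx5, Gpx6, Gpx7, Gpx8, Prdx4 and Sod3. This grouping was made after the values were seen. Gpx5 and Gpx6 were below the detection level in all lines. In AGM-s3-A9 the other 5 all exceeded OP9 by 2-fold or more, by 2.23-fold to 3.06-fold, the upper value being a bound, where 6.58% of all genes were higher. Without scaling the log2 ratio of Gpx8 was 0.68 in this pair, and those of Gpx8 and Gpx7 in OP9 over AGM-s3-A7 were -0.90 and -0.89, all short of the call. Against AGM-s3-A7, 3 of the 5 were called lower in OP9, where 5.98% of all genes were, and 1 was called higher in AGM-s3-A9, where 3.08% were. With the detection level at the 75th percentile of the array type, Gpx3 and Gpx7 could not be measured.

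Among members of the mitochondria, Prdx3, the mitochondrial peroxiredoxin, read 321 in AGM-s3-A9, 692 in OP9 and 252 in AGM-s3-A7. OP9 was 2.75-fold above AGM-s3-A7 and AGM-s3-A9 was 2.16-fold below OP9, the second a log2 ratio of -0.46 without scaling. Prdx3 and Gsto1 lie on chromosome 19, where the median log2 ratio of all genes for OP9 over AGM-s3-A7 was -0.06. Txn2, the mitochondrial thioredoxin, read 532, 641 and 664 in AGM-s3-A9, OP9 and AGM-s3-A7, and lies on chromosome 15, whose median was -0.49 for OP9 over AGM-s3-A7. Txnrd2, the mitochondrial thioredoxin reductase, was not detected.

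The broadly expressed peroxidases Gpx1 and Gpx4 were less than 2-fold apart in every pair. Gpx1, the main cytosolic peroxidase, read 198 in AGM-s3-A9, 229 in OP9 and 247 in AGM-s3-A7. Gpx4, which reduces lipid hydroperoxides in membranes and restrains ferroptosis, read 276, 450 and 398 in the same order. AGM-s3-A9 lay 1.63-fold below OP9 and 1.44-fold below AGM-s3-A7. Gpx2, an intestinal peroxidase, was not detected.

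Prdx2, a cytosolic peroxiredoxin, could not be given a direction in OP9. Its brightest probe set, 100331_g_at, read 1685 in AGM-s3-A9, 885 in OP9 and 2162 in AGM-s3-A7, and on it OP9 was 2.44-fold below AGM-s3-A7. The probe set 99608_at on the same arrays read 31.6 in AGM-s3-A9, 678 in OP9 and 48.7 in AGM-s3-A7. There OP9 was the only line above the detection level, at least 13.8-fold above either AGM line. The suffix of the first marks probes that overlap another probe set, and the other 3 probe sets of the gene were below the detection level in all lines.

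Cat, encoding the peroxisomal catalase, also depended on the probe set. The brightest, 161877_f_at, read 194 in AGM-s3-A9, 223 in OP9 and 230.0 in AGM-s3-A7. The other, 160479_at, whose name carries no cross-hybridisation suffix, read 128 in AGM-s3-A9, 141 in OP9 and 65.8 in AGM-s3-A7. On it OP9 was 2.14-fold and AGM-s3-A9 1.94-fold above AGM-s3-A7. The OP9 ratio on 160479_at passes the call, but the counts by gene read the brightest probe set and leave it out.

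Of the 9 member genes with several detected probe sets, the log2 ratios of the same gene spread over more than 1 for 4 genes in OP9 over AGM-s3-A7, for 3 of 8 in AGM-s3-A9 over AGM-s3-A7 and for 1 in AGM-s3-A9 over OP9. The median spread was 0.59, 0.53 and 0.47 in the same order. Gstm1 shows it within the mu class, a cluster of similar genes on chromosome 3 whose probes can share targets. Its probe set 169504_r_at on MG-U74C read 85.6 in AGM-s3-A9, 109 in OP9 and 240 in AGM-s3-A7, with log2 ratios over AGM-s3-A7 of -1.49 for AGM-s3-A9 and -1.13 for OP9, both called lower. The 3 other detected probe sets of Gstm1 lay within 1.37-fold in these comparisons with AGM-s3-A7.

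**Figure D4:**
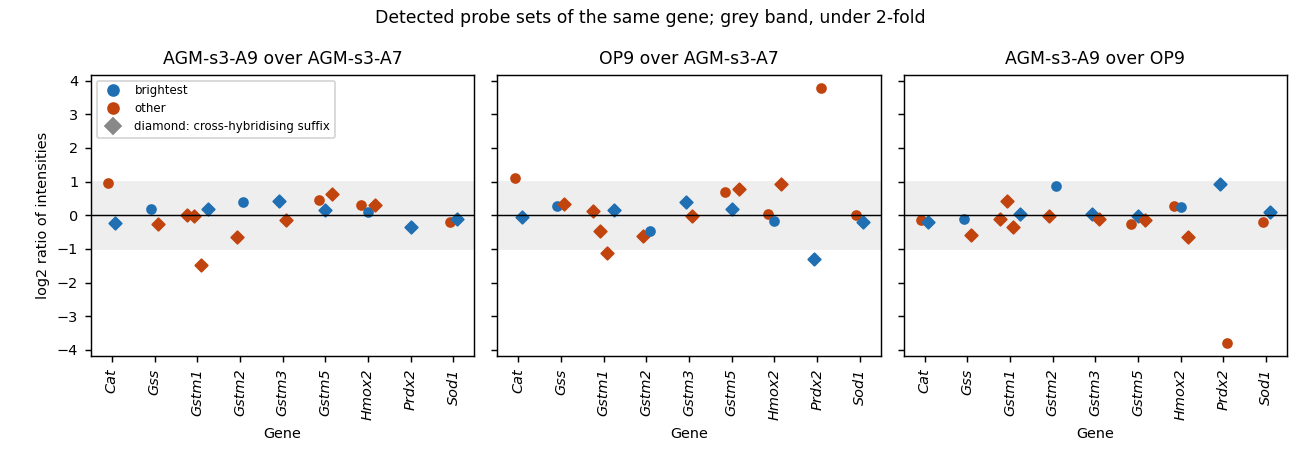
log2 ratios of all detected probe sets for the 9 member genes that have more than 1, in each pair of lines. Blue marks the brightest probe set, orange the others, and diamonds a name with the suffix s, x, f, g, r or i. The probe sets of Sod1 stay together, and those of Prdx2 lie on opposite sides of 0 in the pairs with OP9.

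None of the 4 detected genes of the thioredoxin system was 2-fold apart in any pair. Txn1, the cytosolic thioredoxin, read 2184 in AGM-s3-A9, 1899 in OP9 and 2021 in AGM-s3-A7. Txnrd1, its reductase, read 339, 371 and 254 in the same order, with AGM-s3-A9 1.33-fold and OP9 1.46-fold above AGM-s3-A7. Txnrd3, which is best known from testis, read 269, 214 and 161 on 161284_r_at, with AGM-s3-A9 1.67-fold above AGM-s3-A7. On the log2 scale these differences exceed the yardstick. The suffix r of 161284_r_at was grouped here with those of possible cross-hybridisation. The other 2 probe sets of Txnrd3 were not detected.

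Hmox1, the inducible heme oxygenase that releases iron, carbon monoxide and biliverdin from heme, read 538 in AGM-s3-A9, 1877 in OP9 and 914 in AGM-s3-A7. OP9 was the high line, 3.49-fold above AGM-s3-A9 and 2.05-fold above AGM-s3-A7, and AGM-s3-A9 was 1.70-fold below AGM-s3-A7. Scaled to the 75th percentile, the log2 ratio of OP9 over AGM-s3-A7 was 0.95, short of the call. Hmox2, the constitutive enzyme, read 169, 141 and 158 in AGM-s3-A9, OP9 and AGM-s3-A7 on its brightest probe set. Nqo1, the quinone reductase often read as an NRF2 target, was below the detection level on both of its probe sets in every line, the highest value being 45.8 in AGM-s3-A9.

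Genes around this module were counted from lists of the pathway. The 11 genes of NADPH supply, which feed glutathione and thioredoxin reductases, had 10 on the arrays. Against AGM-s3-A7 none of 9 measured was 2-fold apart in AGM-s3-A9, where 3.08% of all genes were higher and 2.28% lower. In OP9 against AGM-s3-A7, 3 of 10 were higher and 1 lower, with a median log2 ratio of 0.58. Of all genes 5.14% were higher and 5.98% lower in that comparison, with a median of 0.04. Higher in OP9 were Mthfd2, a mitochondrial folate enzyme (565 in AGM-s3-A9, 2277 in OP9 and 941 in AGM-s3-A7), the cytosolic folate enzyme Aldh1l1 (37.1, 234 and 58.2) and the transketolase Tkt (458, 664 and 285). Lower was Nnt, the mitochondrial transhydrogenase, which read 399 in AGM-s3-A9, 202 in OP9 and 486 in AGM-s3-A7.

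Of 12 partners and regulators of NRF2, 9 were detected, with 0 at least 2-fold apart between AGM-s3-A9 and AGM-s3-A7. In that pair 3.08% of all genes were higher and 2.28% lower. In OP9, Bach1, a repressor that competes for the same element, read 157 against 316 in AGM-s3-A7, 2.02-fold lower. Maff, a small MAF partner, was 2.32-fold higher in AGM-s3-A9 (127) than in OP9 (54.6), where it lay just above its detection level, and Gsk3b in AGM-s3-A9 (101) stood 2.17-fold below OP9 (219).

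Among 44 other redox and conjugation genes, 41 were on the arrays and 34 detected. Between AGM-s3-A9 and AGM-s3-A7 none of 32 measured was 2-fold apart, where 3.08% of all genes were higher and 2.28% lower. In OP9 against AGM-s3-A7, 3 of 31 were higher and 5 lower, where 5.14% and 5.98% of all genes were. The metal-binding metallothionein gene Mt2 read 1071 in AGM-s3-A9, 272 in OP9 and 1455 in AGM-s3-A7, which puts OP9 5.35-fold below AGM-s3-A7. Mt1 did not share this, with 568, 1003 and 948. Prnp read 2612, 720 and 2330, Glrx, a cytosolic glutaredoxin, 840, 252 and 800.5, and Sesn1 382, 117 and 363, with OP9 below AGM-s3-A7 by 3.11-fold to 3.23-fold in each. Sesn2 read 85.5 in AGM-s3-A9, 327 in OP9 and 56.2 in AGM-s3-A7, where it was below the detection level, so that OP9 was at least 5.30-fold higher. It rests on 1 probe set, whose name carries a suffix grouped here with those of possible cross-hybridisation. The microsomal transferase Mgst2 read 32.02 in AGM-s3-A9, 182 in OP9 and 74.6 in AGM-s3-A7, which puts OP9 2.44-fold above AGM-s3-A7. The remaining called genes were the paraoxonase Pon2, 2.96-fold higher in OP9, and the carbonyl reductase Cbr1, at least 2.66-fold lower. Mt1, Pon2 and Cbr1 are named after their values were seen.

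Of 11 listed sources of superoxide 7 were on the arrays and 3 detected. Of these 3, 2 were called lower in OP9 against AGM-s3-A7, where 5.98% of all genes were. Cyba, the p22phox subunit of NADPH oxidases, read 611 in AGM-s3-A9, 162 in OP9 and 807 in AGM-s3-A7, which puts OP9 4.99-fold below AGM-s3-A7. Aox1, aldehyde oxidase, read 178, 41.1 and 108, at least 2.19-fold lower in OP9. Xdh, the other detected gene, read 269, 248 and 463, with OP9 1.87-fold below AGM-s3-A7 and short of the call. It is named after its values were seen.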

How the data were processed

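The authors deposited 1 linear intensity per probe set and array, for 9 arrays of total RNA from 3 lines, labelled as biotinylated cRNA from 6 ug RNA per the labels' protocols. How these were scanned, background-corrected, summarised from probes and scaled is not given in the sources used here. The deposited intensities of an array type were not on 1 scale (2% trimmed means up to 61.1% apart), so log2 intensities were quantile normalized over the 3 lines within each type, which removes any general shift. Symbols came from the platform annotation, and 0 changed through RefSeq gene identifiers (GRCm38.p6). Values at or below the detection level were raised to it before a ratio was formed, and no ratio was formed where both lines lay there. The brightest probe set by mean over the lines stood for a gene.

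The members and lists were chosen with earlier results of these data known. Full values are given for members at least 2-fold apart, for Nfe2l2 and Keap1 and for the main genes of each class, and at most 6 genes by size from each other list, with exceptions stated. The calculation was tested on simulated data, with changes larger than 2-fold in probe sets well above the detection level. That test does not cover calls near 2-fold or near the detection level. Alternatives were no scaling, 75th percentile scaling, other detection levels, probe sets without cross-hybridisation suffixes, other folds and the median over probe sets. The suffixes s, x, f, g, r and i were grouped as marks of possible cross-hybridisation, and r and i were not set apart. Python 3.11.15, numpy 2.4.6, pandas 2.3.3, scipy 1.17.1 and matplotlib 3.10.9 were used.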

Additional observations from a re-analysis of the deposited data

Results flagged for a closer look

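In 3 member genes the supportive lines stood on opposite sides of AGM-s3-A7, each by more than the yardstick and at least 1 of them by 2-fold. That yardstick, 0.30 or 0.31, is 1 SD between probe sets on the same arrays and not a limit of error between arrays. Gsto1 had a log2 ratio of -0.51 in AGM-s3-A9 and 1.07 in OP9, each over AGM-s3-A7. Hmox1 had -0.77 in AGM-s3-A9 and 1.04 in OP9. Gpx7 had 0.47 in AGM-s3-A9 and -1.14 in OP9, the second a bound. Without scaling, the ratio of AGM-s3-A9 over AGM-s3-A7 was 0.23 for Gsto1, on the same side as OP9, and -0.09 for Hmox1. The difference between the lines was not tested, since each value rests on 1 array per line.

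The 3 probe sets annotated to both Prdx1 and Gm21399 stood outside the comparisons and carried signal in every line. The lowest normalized intensity over the lines was 2430 for 97055_s_at, 1895 for 97758_at and 168 for 136105_at, above the detection levels of their array types. All of their ratios between lines were under 2-fold.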

How the results depend on the processing

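Of the 21 ratios of at least 2-fold among the member genes described, 15 stayed at least 2-fold on the deposited intensities and 6 kept their direction below it (Gstt3 in AGM-s3-A9 over AGM-s3-A7, Gpx7 and Gpx8 in OP9 over AGM-s3-A7, Gpx8, Gsto1 and Prdx3 in AGM-s3-A9 over OP9). All 21 stayed with the detection level at the median, 20 with scaling to the 75th percentile, where Hmox1 in OP9 over AGM-s3-A7 came to 0.95, and all 15 that could be measured with the level at the 75th percentile, the other 6, of Gsta4, Gpx3 and Gpx7, being below it in both lines. Prdx2 in OP9 over AGM-s3-A7 turned from -1.29 to 3.79 without suffixes of possible cross-hybridisation and to 1.25 with the median over probe sets, since other probe sets then stand for it, and in AGM-s3-A9 over OP9 it moved to -3.79 and -1.43, against 0.93. With no scaling, the median log2 ratio of member genes was 0.73 in AGM-s3-A9 over AGM-s3-A7 and 0.60 in AGM-s3-A9 over OP9, where all genes had 0.24 and 0.19. The medians of all genes pool the 3 array types, whereas 56 of the 88 member probe sets lie on MG-U74A. The effect of scaling differed between array types. In AGM-s3-A9 over AGM-s3-A7, Nfe2l2 on MG-U74A had 0.17 normalized and 0.92 unscaled, and Gpx8 on MG-U74B had 0.10 and -0.22. Members and all genes are thus not compared on a like basis without scaling. For AGM-s3-A9 over AGM-s3-A7, 3 member probe sets were higher, 12 with no scaling and 1 with the detection level at the 75th percentile. Higher at 1.5-fold were 7 and at 3-fold 0, where 9.8% and 0.639% of all probe sets were. The count of lower ones, 1, was 0 without the suffixes, 3 at 1.5-fold and 0 at 3-fold. At these folds 9.22% and 0.464% of all probe sets were lower. For OP9 over AGM-s3-A7, 10 were higher at 1.5-fold, and 1 was higher and 0 lower at 3-fold. Of all probe sets 13.7% were higher at 1.5-fold, and 1.28% higher and 2.04% lower at 3-fold. For AGM-s3-A9 over OP9, 2 were lower with no scaling, 7 were lower at 1.5-fold, and 1 was higher and 2 lower at 3-fold. There 14.1% of all were lower at 1.5-fold, and 2.32% higher and 1.17% lower at 3-fold. No such share was counted for the other settings. Thresholds of fewer or more folds change the counts by construction, and the cause of the other changes was not tested. No paired analysis was possible because each line has 1 array per array type.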
